A study of Mus musculus with 27 samples.

Results

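The genes described here are 10 homeostatic astrocyte genes, *Aqp4*, *Slc1a2*, *Slc1a3*, *Aldh1l1*, *Glul*, *Gja1*, *Gjb6*, *Kcnj10*, *Sox9* and *Aldoc*, followed through mouse hippocampus and cortex after antibody infusion. They were chosen by name, as the rows of the count table whose Ensembl identifier carries 1 of these symbols in GENCODE M21, and all 10 of the 10 symbols were found among the 55487 genes of the table. All 10 also passed the filter for testing (at least 10 counts in at least 4 libraries), which left 20271 genes, and the lowest count of any member in any library was 664.

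RNA was sequenced from the contralateral hippocampus (13 libraries) and cortex (14 libraries) of 14 male wild-type C57Bl/6J mice, aged 8 weeks, that received fluid into the right lateral ventricle for 14 days at 0.25 μl/hour. The fluid held α-IgLON5#1, an IgLON5-specific antibody pool purified from patient plasma (n = 4 hippocampi and 4 cortices), pCtrl, a human control IgG (n = 4 hippocampi and 5 cortices), or phosphate-buffered saline (PBS; n = 5 and 5). The sample labels call the control IgG a monoclonal and the study's methods take it from the serum of a healthy person, so its source cannot be told here. All mice carried no genetic change, both tissues came from the side opposite to the infusion, and the number in a sample's title was taken as the mouse. The labels name neurons as the cell type, but the libraries are of whole tissue: summed over fixed lists, markers of neurons reached 5224 to 7871 CPM, those of oligodendrocytes 1639 to 4491, and the 10 astrocyte genes 5443 to 8514. CPM, the count of a gene relative to the size of its library, is scaled here by TMM factors, which adjust for differences in RNA makeup between libraries. Library totals ran from 19385642 to 58550621 counts. In hippocampus they were 19428512 to 32776892 in α-IgLON5#1 and 39479753 to 52212204 in pCtrl libraries, which did not overlap. The part of this difference in depth in the hippocampal results was not tested. In such bulk tissue, fewer astrocytes and less of a transcript per astrocyte cannot be told apart.

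Astrocytes keep the surroundings of neurons constant. They take up released glutamate and turn it into glutamine, clear potassium after firing, move water at their endfeet on blood vessels, and are joined to each other by gap junctions. In the inflamed or injured brain astrocytes also switch on a reactive program, marked by *Gfap* and other genes, and the homeostatic genes are often followed beside it to see whether these supportive tasks hold.

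The members are spread over several chromosomes (GRCm38, 1-based, GENCODE M21, all protein-coding). The glutamate transporter genes are *Slc1a2* (GLT-1; ENSMUSG00000005089.15, chr2:102658659-102790784, plus strand) and *Slc1a3* (GLAST; ENSMUSG00000005360.14, chr15:8634124-8710764, minus strand), and *Glul* (ENSMUSG00000026473.16, chr1:153899944-153909723, plus strand) encodes glutamine synthetase. The gap junction genes are *Gja1* (connexin 43; ENSMUSG00000050953.10, chr10:56377330-56402513, plus strand) and *Gjb6* (connexin 30; ENSMUSG00000040055.9, chr14:57123303-57133611, minus strand). *Aqp4* (ENSMUSG00000024411.11) encodes the water channel aquaporin-4, and *Kcnj10* (ENSMUSG00000044708.5, chr1:172341210-172374085, plus strand) the potassium channel Kir4.1. *Aldh1l1* (ENSMUSG00000030088.15, chr6:90486427-90600203, plus strand) encodes an enzyme of folate metabolism, *Aldoc* (ENSMUSG00000017390.15, chr11:78322968-78327781, plus strand) the glycolytic enzyme aldolase C, and *Sox9* (ENSMUSG00000000567.5, chr11:112782224-112787760, plus strand) a transcription factor of the glial lineage. Exons of *Slc1a2* share 189 bases with the antisense gene Gm13872, exons of *Aldh1l1* share 499 with the antisense gene Gm15756 and 105 with Gm45901 on its own strand, and exons of *Glul* share 93 with Mir8114 and 116 with *Teddm2* on the opposite strand. The strand setting of the authors' counting is not given in the sources used here, so reads in those stretches cannot be assigned to 1 gene. The other 7 members shared no annotated exon bases with another gene.

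RefSeq promoter windows (GRCm38.p6) were examined for 8 of the 10 members, with 9 start sites because *Aldoc* has 2. *Aqp4* was left out of this search, and *Sox9* had no window in the set used. They are shown for 3 genes that the results return to: *Aldh1l1*, the member that differed between the tissues, *Slc1a3*, of the pair of members that varied most alike, and *Gjb6*, whose level was among the most variable between mice. The windows cover up to 250 bases before the start, cut where an annotated exon begins, on the gene's own strand.
Aldh1l1, chr6:90550543-90550788, plus strand: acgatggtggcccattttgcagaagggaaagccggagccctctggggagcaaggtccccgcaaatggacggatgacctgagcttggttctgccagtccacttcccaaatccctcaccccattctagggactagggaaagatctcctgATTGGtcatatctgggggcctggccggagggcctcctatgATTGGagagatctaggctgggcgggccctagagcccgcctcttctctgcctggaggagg
Slc1a3, chr15:8710808-8711057, minus strand: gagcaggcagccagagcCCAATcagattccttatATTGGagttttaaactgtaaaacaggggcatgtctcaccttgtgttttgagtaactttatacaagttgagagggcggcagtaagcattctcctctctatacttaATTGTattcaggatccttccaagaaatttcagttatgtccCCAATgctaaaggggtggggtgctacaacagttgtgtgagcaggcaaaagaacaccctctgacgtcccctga
Gjb6, chr14:57133612-57133861, minus strand: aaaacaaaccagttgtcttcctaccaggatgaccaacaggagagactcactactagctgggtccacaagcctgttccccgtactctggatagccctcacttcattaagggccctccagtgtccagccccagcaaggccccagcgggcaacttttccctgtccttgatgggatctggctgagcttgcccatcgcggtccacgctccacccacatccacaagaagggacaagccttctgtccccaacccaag
Capitals mark matches, on either strand, to CCAAT (the CCAAT box), ACAAT (the core bound by SOX factors) and TTGGC (the core bound by nuclear factor I), 3 motifs of which CCAAT and TTGGC overlap wherever GCCAA is followed by T. CCAAT was found in 4 of the 9 member windows and in 33.8% of all 32851 windows of the same length, ACAAT in 2 of 9 and 27.7%, and TTGGC in 4 of 9 and 41.5%. *Aldh1l1* held 2 CCAAT matches, *Slc1a3* held 3 CCAAT and 1 ACAAT, and *Gjb6* held none of the 3. The *Aldh1l1* window lies inside the GENCODE gene, whose longest transcripts start further upstream.

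Per kilobase of exon, *Glul* was the highest member in both tissues of PBS mice, at 446 ± 45.1 CPM per kilobase in hippocampus and 459 ± 33.5 in cortex (SD, n = 5 each). *Slc1a2* followed at 266 ± 27.8 and 284 ± 11.5, and *Aldoc* at 241 ± 18.4 and 236 ± 9.76. *Slc1a2* and *Aldoc* overlapped between libraries in hippocampus and were separate in cortex. *Slc1a3* was next, at 93.1 ± 8.83 and 84.3 ± 3.56 CPM per kilobase.

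The channels and connexins formed a lower tier whose neighbours could not be told apart. *Aqp4* (33.0 ± 4.18 CPM per kilobase in hippocampus), *Kcnj10* (32.9 ± 2.59), *Gja1* (25.6 ± 3.11) and *Gjb6* (22.7 ± 3.67) each overlapped with the next in that order, and the same 4 genes overlapped in the cortex. *Aldh1l1* (10.9 ± 0.418 in hippocampus and 14.1 ± 0.726 in cortex) and *Sox9* (8.41 ± 1.18 and 7.49 ± 0.823) were the lowest members. The union of exons was used as the length, so a gene whose long exons are rarely used appears lower on this scale.

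In PBS mice, the comparison of cortex with hippocampus asked whether the members differ between the tissues without antibody. *Aldh1l1* was higher in cortex, and the other 9 members did not pass the test. In CPM, *Aldh1l1* was measured at 65.6, 64.4, 62.8, 67.6 and 58.9 in the 5 PBS cortices and at 50.1, 48.1, 47.2, 52.0 and 48.9 in the 5 PBS hippocampi. The groups did not overlap, and the fitted difference was 0.37 on the log2 scale (SE 0.0857, 1.30-fold, 95% interval 1.15- to 1.47-fold, edgeR quasi-likelihood test with Benjamini-Hochberg adjusted p = 0.00149). The calls thus covered 1 of 10 members, against 26.7% of all genes tested. With the mouse as a block, the adjusted p of *Aldh1l1* was 2.77e-05. The tissues also differed in their cell makeup: 6 of 8 neuron markers were higher in cortex and 1 lower, and the part of this in the result was not tested.

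The log2 differences of the other 9 members, cortex minus hippocampus, lay between -0.20 (*Aqp4*, adjusted p = 0.334) and 0.13 (*Gjb6*, adjusted p = 0.622). *Slc1a3* was the nearest to the threshold among them, at -0.14 (SE 0.0761, adjusted p = 0.178). The median over the members was -0.03, and over all genes it was -0.01.

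Other astrocyte genes were compared between the tissues as well. Of 79 other genes of 6 fixed lists (water and ion transport, transmitter handling, coupling, metabolism, transcription and further astrocyte genes), 2 were higher in cortex and 16 lower, beside 26.7% of all genes called in either direction. *Zbtb20*, a transcription factor, was measured at 107 ± 21.9 CPM in cortex and 394 ± 71.8 in hippocampus (SD, n = 5 each; log2 difference -1.88, SE 0.181, adjusted p = 1.98e-08). *Slc14a1*, a urea transporter, was lower in cortex (log2 difference -0.84, adjusted p = 0.00565), while *Chrdl1*, a secreted antagonist of bone morphogenetic proteins, was higher by 1.72 (adjusted p = 2.94e-07) and *Ldhb*, a lactate dehydrogenase subunit, by 0.33 (adjusted p = 0.000611). Among 27 reactive genes 1 was higher in cortex, *S100a10* (log2 difference 0.32, adjusted p = 0.0338), and 3 were lower, *Serpina3n* (-1.90, adjusted p = 0.00174), *Amigo2* (-1.78, adjusted p = 6.76e-07) and *Gfap* (-0.70, adjusted p = 0.0263). The calls of *S100a10* and *Gfap* were each lost in 5 of 16 alternatives, all of which left out 1 library (adjusted p up to 0.117 and 0.0959).

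α-IgLON5#1 against pCtrl is the comparison that asks what the IgLON5-specific antibodies do beyond a control IgG. None of the 10 members passed the test in either tissue. In hippocampus edgeR called 0 of 10 members, against 7.01% of all genes, 0 members had an unadjusted p under 0.05, and DESeq2 called 0. In cortex edgeR called 0 of 10, against 3.46% of all genes, 1 member had an unadjusted p under 0.05, and DESeq2 called 0. No member's groups were separate in either tissue.

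**Figure D1:**
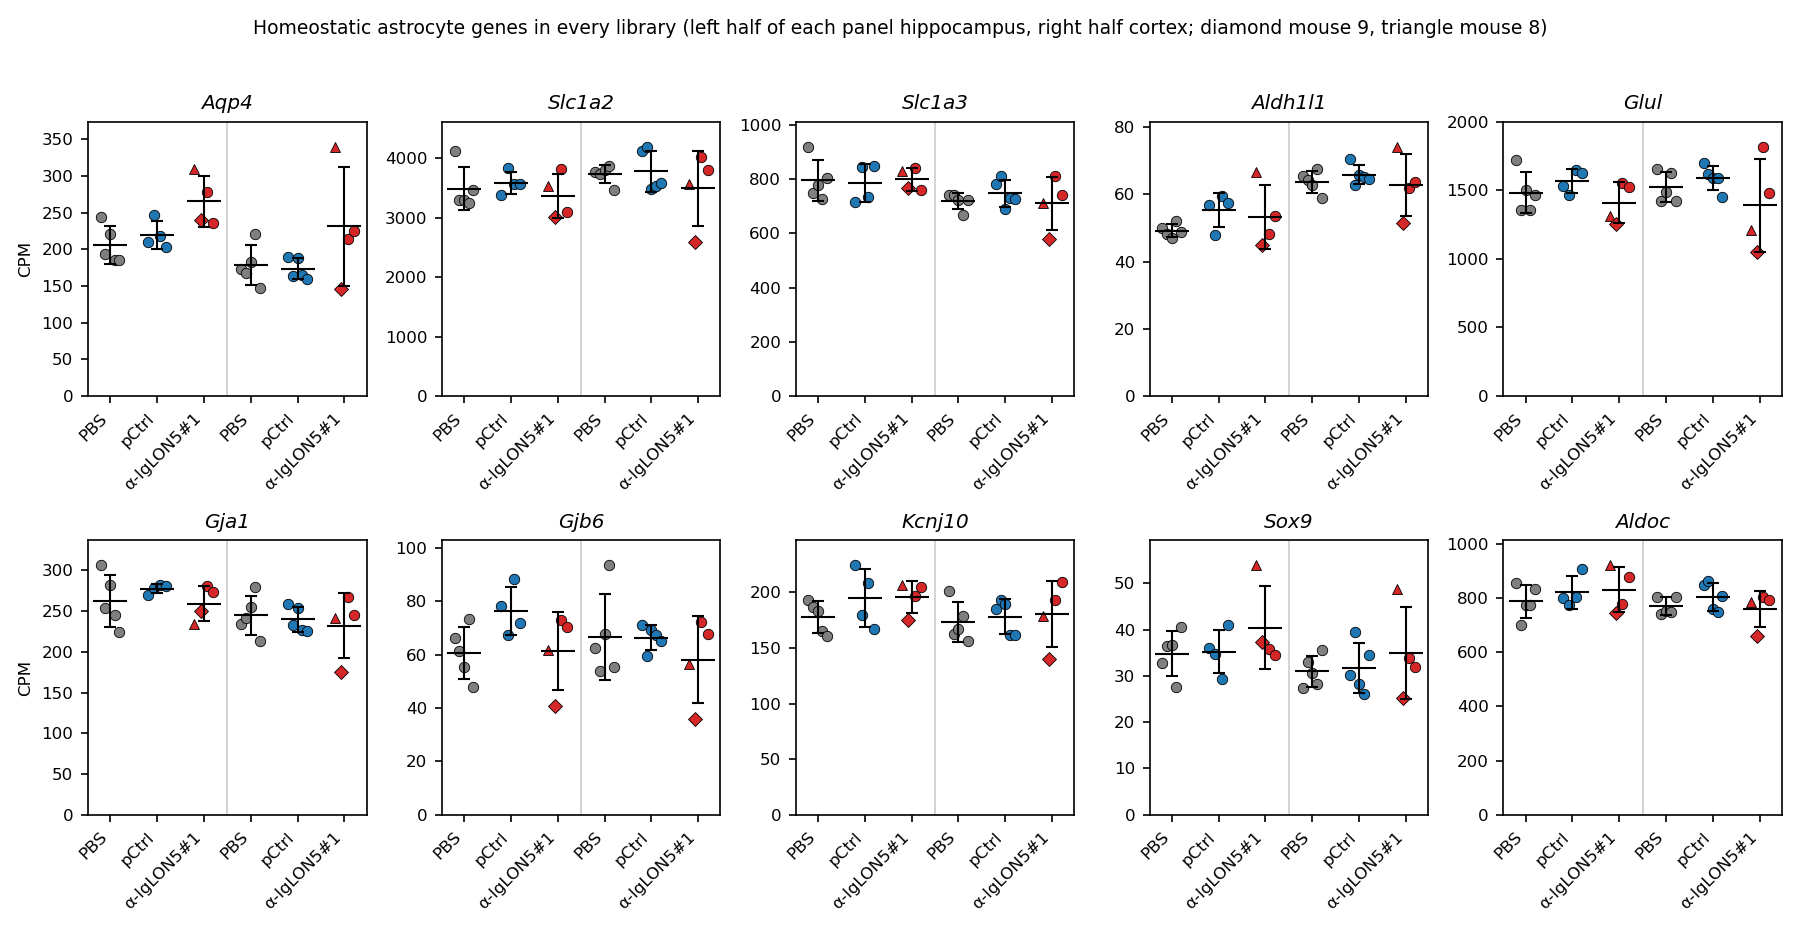
CPM of each member in each library, with hippocampus at the left and cortex at the right of every panel, grey for PBS, blue for pCtrl and red for α-IgLON5#1 mice, and the mean and SD as bars. The treatment groups overlap in every panel, the diamond (mouse 9) is the lowest cortex of all 14 for each of the 10 genes, and the triangle (mouse 8) is the highest for *Aqp4*, *Aldh1l1* and *Sox9* in both tissues.

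*Aqp4* came nearest to a change. Its hippocampal level was 310, 240, 278 and 236 CPM in the 4 α-IgLON5#1 mice (numbers 8, 9, 16 and 17) and 210, 247, 219 and 204 CPM in the 4 pCtrl mice. In cortex it was 340, 146, 214 and 226 CPM in the same α-IgLON5#1 mice and 190, 164, 189, 165 and 160 CPM in the 5 pCtrl mice. In the cortex 3 of the 4 α-IgLON5#1 mice lay above every pCtrl mouse and the other, mouse 9, lay below them all. The fitted difference was 0.41 on the log2 scale in cortex (SE 0.152, 1.33-fold, 95% interval 1.07- to 1.66-fold, unadjusted p = 0.0111 and adjusted p = 0.156, edgeR) and 0.27 in hippocampus (SE 0.160, 1.21-fold, 95% interval 0.961- to 1.52-fold, adjusted p = 0.335).

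Whether *Aqp4* was called in cortex depended on single mice. Without the cortex of mouse 9 the log2 difference was 0.58 and passed the test (adjusted p = 0.0111, edgeR), and without that of mouse 8 it was 0.17 (adjusted p = 0.676). Over all alternatives the difference stayed positive, from 0.17 to 0.59 in cortex and from 0.19 to 0.33 in hippocampus.

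The other endfoot channel, *Kcnj10*, gave 206, 176, 197 and 205 CPM in α-IgLON5#1 hippocampi and 224, 179, 209 and 167 in pCtrl hippocampi. Its log2 differences were 0.01 (95% interval of the fold 0.865 to 1.17) in hippocampus and 0.02 (0.877 to 1.17) in cortex. *Aqp4* relative to *Kcnj10*, as a ratio of CPM in percent, was 115 to 150 in α-IgLON5#1 and 93.6 to 138 in pCtrl hippocampi, and 104 to 190 against 84.9 to 102 in cortices. The PBS cortices spanned 85.7 to 124, which overlaps with both groups. Set against the geometric mean of the other 9 members, *Aqp4* was likewise 66.3% to 112% in α-IgLON5#1 cortices and 51.9% to 63.6% in pCtrl cortices, but PBS cortices reached 71.0%. In hippocampus it was 77.2% to 95.9% in α-IgLON5#1, 63.6% to 82.1% in pCtrl and 65.4% to 76.2% in PBS mice, so that there α-IgLON5#1 overlapped with pCtrl and lay above PBS. Both ratios were formed after the values had been seen and were not tested.

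The transporters and glutamine synthetase were not called. *Slc1a2* was measured at 3523, 3014, 3819 and 3093 CPM in α-IgLON5#1 hippocampi and at 3387, 3826, 3568 and 3560 in pCtrl hippocampi. In cortex it was 3558, 2583, 4018 and 3798 CPM against 4121, 4192, 3479, 3530 and 3576. The α-IgLON5#1 values reached below those of pCtrl in both tissues and overlapped with them, and the log2 differences were -0.09 (SE 0.107) in hippocampus and -0.12 (SE 0.101) in cortex. *Slc1a3* differed by 0.03 (SE 0.0851) and -0.07 (SE 0.0808).

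*Glul* was 1310, 1252, 1554 and 1526 CPM in α-IgLON5#1 hippocampi and 1534, 1463, 1652 and 1630 in pCtrl hippocampi. In cortex it was 1214, 1048, 1819 and 1480 CPM against 1698, 1620, 1590, 1592 and 1452. Mice 8 and 9 were below all pCtrl mice in both tissues, whereas mouse 16 had the highest cortical value of all 14 libraries. The log2 difference was -0.19 in cortex (SE 0.109, 0.874-fold, 95% interval 0.748- to 1.02-fold, adjusted p = 0.412) and -0.15 in hippocampus (SE 0.115, adjusted p = 0.466). Without the cortex of mouse 16 the cortical difference was -0.35 and passed the test (adjusted p = 0.0371, edgeR), and without that of mouse 9 it was -0.08 (adjusted p = 0.789).

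Of the connexins, *Gjb6* had the largest fitted difference below 0 in hippocampus, -0.31 on the log2 scale (SE 0.187, 0.807-fold, 95% interval 0.619- to 1.05-fold, adjusted p = 0.350). Its values there were 61.8, 40.7, 73.0 and 70.4 CPM in α-IgLON5#1 mice and 78.1, 67.5, 88.2 and 71.9 in pCtrl mice, with mouse 9 far below the rest. Without the hippocampus of mouse 9 the *Gjb6* difference was -0.16, and with a score of tissue composition as a covariate, described with pCtrl against PBS, it was -0.04 (adjusted p = 0.972). *Gja1* was 234 to 281 CPM against 269 to 282, a log2 difference of -0.10 (SE 0.102). In cortex *Gjb6* differed by -0.19 (SE 0.178) and *Gja1* by -0.05 (SE 0.0970). 

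*Sox9* was 53.9, 37.4, 35.9 and 34.6 CPM in α-IgLON5#1 hippocampi and 35.9, 34.8, 29.4 and 40.9 in pCtrl hippocampi. In cortex it was 48.7, 25.2, 33.8 and 32.0 CPM against 30.1, 39.4, 28.2, 25.98 and 34.6. Only mouse 8 was above the pCtrl range in each tissue, and the log2 differences of 0.19 (SE 0.166) and 0.15 (SE 0.158) did not pass the test. *Aldh1l1* differed by -0.06 (SE 0.0960) in hippocampus and -0.07 (SE 0.0906) in cortex, and *Aldoc* by 0.02 (SE 0.0770) and -0.08 (SE 0.0731).

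Over the 10 members the median log2 difference was -0.02 in hippocampus (5 above and 5 below 0) and -0.07 in cortex (3 above and 7 below), where the medians of all genes were 0.00 and -0.01. The lowest lower bound of a 95% interval was that of *Gjb6* in both tissues (0.619-fold in hippocampus and 0.680-fold in cortex), and the highest upper bound that of *Aqp4* (1.52- and 1.66-fold). The effect of α-IgLON5#1 against pCtrl was also compared between the tissues as an interaction. edgeR called 0 of 10 members and 0% of all genes, with 0 members and 2158 of all genes at an unadjusted p under 0.05, whereas DESeq2 called 0 members and, of all genes, 18 in each direction. The member differences, hippocampus minus cortex, ran from -0.14 (*Aqp4*, adjusted p = 0.874) to 0.10 (*Aldoc*, adjusted p = 0.793) on the log2 scale.

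**Figure D2:**
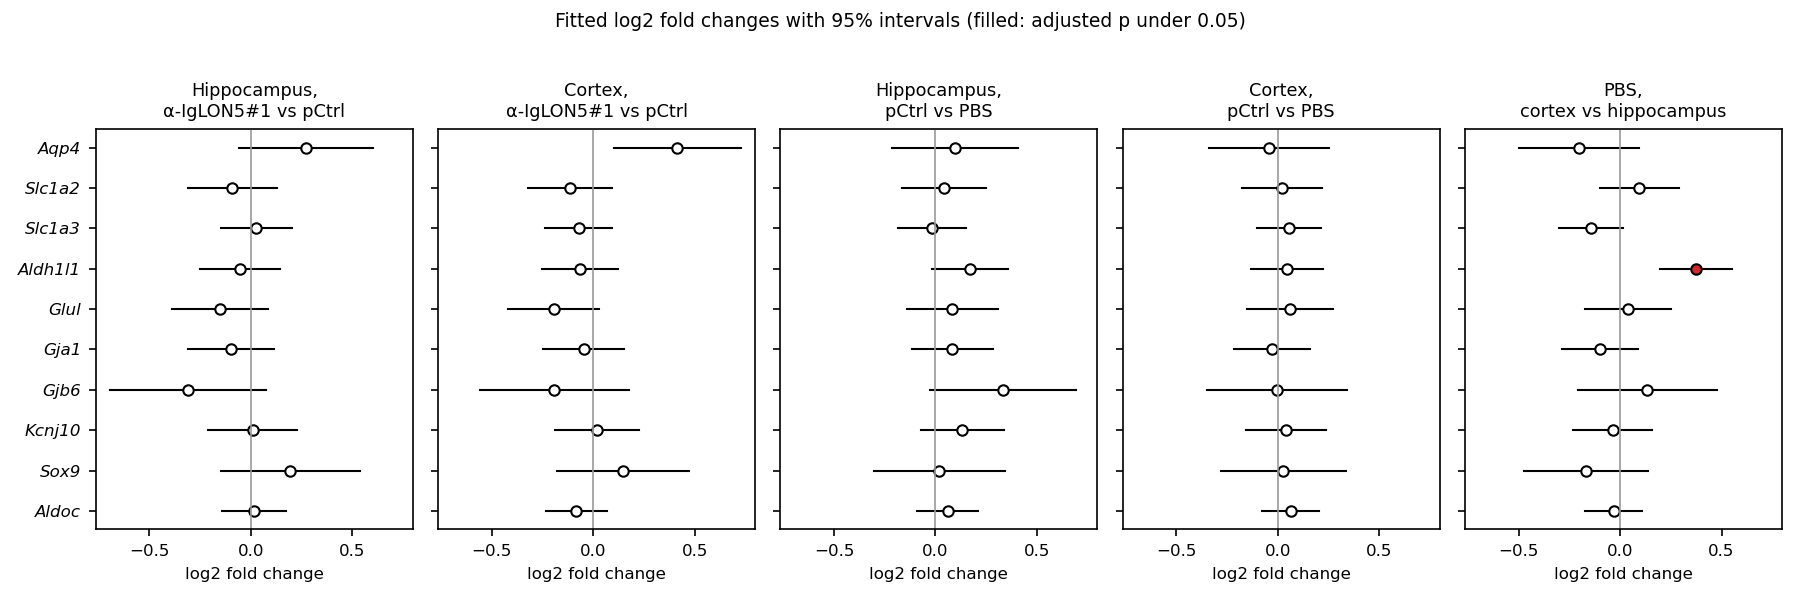
Fitted log2 fold change of each member with its 95% interval (lines) in 5 comparisons, filled where the adjusted p was under 0.05. The 1 filled point is *Aldh1l1* in cortex against hippocampus of PBS mice (0.37), and in cortex after α-IgLON5#1 the interval of *Aqp4* lies above 0 although its adjusted p was 0.156.

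The other homeostatic astrocyte genes were compared between α-IgLON5#1 and pCtrl in the same fit. Of the 79 genes of the 6 fixed lists, 0 were called higher and 2 lower in hippocampus, beside 7.01% of all genes, and 1 higher and 1 lower in cortex, beside 3.46%, so that the cortical count is near the share of all genes. The medians were -0.05 and -0.11 on the log2 scale, and those of all genes 0.00 and -0.01. Genes above 0 in cortex numbered 3 of 11 in water and ion transport, 4 of 11 in transmitter handling and 0 of 3 in coupling. In metabolism they numbered 2 of 14, in transcription 3 of 13 and in the further astrocyte genes 6 of 27. In hippocampus the same 6 counts were 4, 1, 1, 7, 6 and 12. The water and ion transport list had 0 of 11 genes called in each tissue, transmitter handling 0 of 11, and coupling 0 of 3. At an unadjusted p under 0.05 these 3 lists held 1, 4 and 0 genes in hippocampus and 3, 1 and 0 in cortex. By the same measure metabolism held 3 of 14 genes in hippocampus and 6 in cortex, transcription 1 and 0 of 13, and the further astrocyte genes 6 of 27 in each tissue, beside 4431 and 3116 of all 20271 genes.

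The genes called lower in hippocampus were *Id4*, a transcriptional inhibitor, at 66.6 ± 19.1 CPM in α-IgLON5#1 and 98.4 ± 12.3 in pCtrl mice (SD, n = 4 each; log2 difference -0.56, SE 0.170, adjusted p = 0.0452), and *Gpc5*, a glypican, at 38.0 ± 4.30 and 46.6 ± 2.30 CPM (-0.29, SE 0.0872, adjusted p = 0.0396). In cortex *Phgdh*, the first enzyme of serine synthesis, was lower, at 39.7 ± 3.64 against 50.98 ± 3.699 CPM (n = 4 and 5; -0.36, SE 0.0656, adjusted p = 0.00109), and *Slc14a1* was higher, at 21.3 ± 13.6 against 10.9 ± 1.124 CPM (0.96, SE 0.238, adjusted p = 0.0193). For each of these 4 genes the groups did not overlap, but the calls differed in how they held over the alternatives. That of *Id4* was lost in 9 of 16 (adjusted p up to 0.489) and that of *Gpc5* in 8 of 16 (up to 0.501), for both with only the groups compared, with animals 8 to 17, with the composition covariate and without single libraries, mice 8 and 9 among them. The difference of *Id4* was hardly smaller in some of these, -0.56 with only the groups compared and -0.55 with the composition covariate, and was nearest to 0 without mouse 8 (-0.41), while that of *Gpc5* was nearest to 0 with the composition covariate (-0.21). *Slc14a1* lost its call in 6 of 17, and without the cortex of mouse 8, at 41.5 CPM against 12.4 to 16.3 in the other α-IgLON5#1 cortices, its difference was 0.41 (adjusted p = 0.286). *Phgdh* lost its call in 1 of 17, with animals 8 to 17, where its difference was larger (-0.42, adjusted p = 0.0513). This setting kept all α-IgLON5#1 mice but, of pCtrl, only mice 10, 11 and 15 in cortex and 10 and 15 in hippocampus. The α-IgLON5#1 mice were all numbered 8 to 17, whereas the numbers of pCtrl mice ran from 10 to 75.

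Of 27 reactive genes 12 were called higher and 0 lower in hippocampus, and 14 higher and 0 lower in cortex. Of all genes 4.23% and 3.01% were called higher. The medians of the list were 0.96 and 1.19 on the log2 scale, and those of all genes 0.00 and -0.01. This list was chosen with earlier results of these data known, so its excess over all genes is not independent of them. *C3*, a complement component, rose from 0.630 ± 0.669 to 31.3 ± 14.8 CPM in hippocampus (SD, n = 4 each; log2 difference 5.56, adjusted p = 1.00e-06) and from 0.437 ± 0.356 to 16.4 ± 11.8 in cortex (5.10, adjusted p = 4.95e-06). *Cxcl10*, a chemokine, rose by 4.91 and 6.80 on the log2 scale (adjusted p = 0.0137 and 0.00214), *Lcn2*, a siderophore-binding protein, by 3.66 and 4.32 (adjusted p = 0.0116 and 0.00325) and *Ptx3*, a pentraxin, by 3.69 and 4.71 (adjusted p = 0.0491 and 0.0153). *Steap4*, a metalloreductase, rose by 4.05 in hippocampus (adjusted p = 0.00235) and *Tgm1*, a transglutaminase, by 3.93 in cortex (adjusted p = 0.00197). For *C3* every α-IgLON5#1 library was above every pCtrl library, whereas *Lcn2* was 21.2, 15.6, 0.858 and 2.12 CPM in the hippocampi of α-IgLON5#1 mice 8, 9, 16 and 17 and 27.3, 8.59, 0.50 and 1.26 in their cortices, so that its rise lay mostly in mice 8 and 9. *Ptx3* was 23.4 CPM in the hippocampus and 35.1 in the cortex of mouse 8, against 0.774 to 1.23 and 0.262 to 0.902 in the other α-IgLON5#1 mice, and without that cortex its difference was 0.71 and not called. *Cxcl10* was likewise 86.5 and 88.1 CPM in mouse 8, against 1.29 to 4.45 in hippocampus and 0.405 to 10.6 in cortex, and *Tgm1* was 8.07 CPM in the cortex of mouse 8 against 0.214 to 1.19. *Steap4* was 15.2, 5.01, 1.04 and 1.66 CPM in the hippocampi of mice 8, 9, 16 and 17. Without the library of mouse 8 the calls of *Cxcl10*, *Ptx3* and *Lcn2* were lost in hippocampus and those of *Ptx3*, *Lcn2* and *Tgm1* in cortex, whereas *C3* was called in both tissues under every alternative that kept it (adjusted p up to 0.0492). Calls were also lost elsewhere. That of *Steap4* was lost in 2 of 15 alternatives, with animals 8 to 17 and with the composition covariate (adjusted p up to 0.271). Over all 15 its log2 difference ran from 2.87 to 4.42. With the omission of mouse 8 counted, the hippocampal calls of *Cxcl10* were lost in 6 of 15, *Ptx3* in 9 of 14 and *Lcn2* in 4 of 15. In cortex those of *Cxcl10* were lost in 2 of 16, *Ptx3* in 4 of 15, *Lcn2* in 4 of 16 and *Tgm1* in 4 of 16. Several of these genes are also expressed by microglia and infiltrating cells, whose summed markers were higher in every α-IgLON5#1 library than in every pCtrl library of its tissue. Mouse 8 had the lowest microglial sum of the 4 α-IgLON5#1 mice in both tissues (491 and 474 CPM). Its *C3* was the highest of them in both (53.45 and 33.04 CPM). In the hippocampi of mice 9, 16 and 17 the microglial sum was 908, 692 and 515 CPM and *C3* was 25.2, 24.1 and 22.5 CPM. In their cortices the sum was 539.2, 513.1 and 491.5 CPM and *C3* was 16.6, 7.19 and 8.84 CPM. The lymphocyte sum was highest in mouse 17 (85.9 and 32.9 CPM). Of 8 microglial markers 7 were called higher in hippocampus and 2 in cortex, the summed level was 491 to 908 CPM in α-IgLON5#1 against 338 to 390 in pCtrl hippocampi and 474 to 539 against 334 to 407 in cortices, and no marker was at 0 in every library of a group. Lymphocyte markers reached 5.58 to 85.9 CPM in α-IgLON5#1 hippocampi and 5.49 to 32.9 in cortices, against at most 2.13 in any pCtrl library. Their part in the rise of the reactive genes was not tested.

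**Figure D3:**
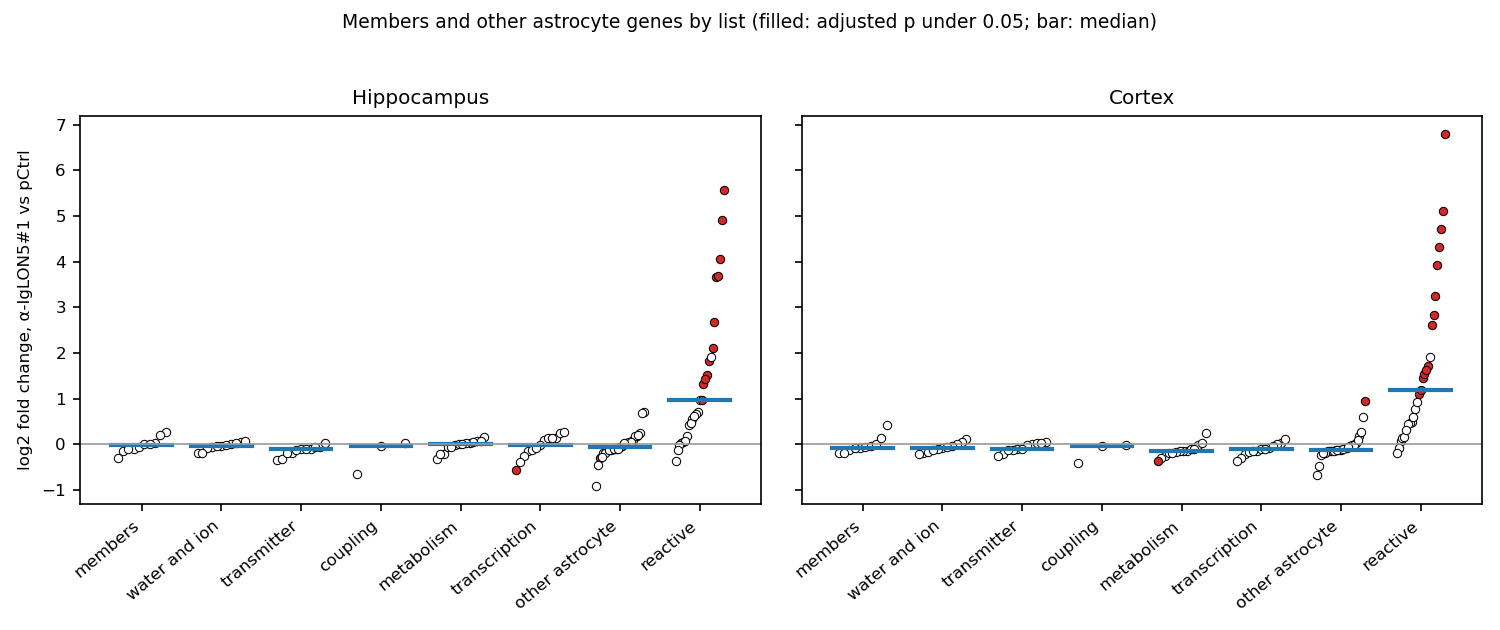
Log2 fold change of α-IgLON5#1 against pCtrl for each gene of the members and of 7 astrocyte lists (1 circle a gene, filled where the adjusted p was under 0.05, bar at the median), for hippocampus and cortex. The medians of the members and the 6 homeostatic lists sit between -0.15 and 0.00, in cortex all below 0. Single genes of these lists reach from -0.91 to 0.72 in hippocampus and from -0.66 to 0.96 in cortex. The reactive list has medians of 0.96 and 1.19.

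The comparisons with PBS use the same α-IgLON5#1 libraries as those with pCtrl and are not independent of them. Here too the members did not pass the test. In hippocampus edgeR called 0 of 10 members, against 4.29% of all genes, and in cortex 0 of 10, against 3.05%. In each tissue 1 member, *Aqp4*, had an unadjusted p under 0.05, and DESeq2 called 0 members in both. *Aqp4* was 244, 194, 222, 185 and 185 CPM in the PBS hippocampi, where mouse 14 was above the lowest α-IgLON5#1 hippocampus, and 173, 168, 183, 222 and 148 CPM in the PBS cortices. Its log2 difference from PBS was 0.37 in hippocampus (SE 0.152, 1.29-fold, 95% interval 1.04- to 1.60-fold, adjusted p = 0.213) and 0.37 in cortex (SE 0.151, 1.29-fold, 95% interval 1.04- to 1.61-fold, adjusted p = 0.348). Without the cortex of mouse 9 the cortical difference was 0.54 (adjusted p = 0.0189), and without that of mouse 8 it was 0.13 (adjusted p = 0.982).

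The other 9 members differed from PBS by -0.07 (*Glul*) to 0.21 (*Sox9*) on the log2 scale in hippocampus and by -0.19 (*Gjb6*) to 0.17 (*Sox9*) in cortex. Among the 79 other homeostatic genes none was called in hippocampus, and *Phgdh* was called lower in cortex (log2 difference -0.31, SE 0.0654, adjusted p = 0.00352), a call lost with only the groups compared (-0.30, adjusted p = 0.0533). Reactive genes called higher numbered 14 of 27 in hippocampus and 13 of 27 in cortex, beside 3.81% and 2.97% of all genes, and 0 were lower.

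The control IgG was also compared with PBS, using the same pCtrl and PBS libraries as above. In hippocampus edgeR called 0 of 10 members, against 0.192% of all genes, with 0 at an unadjusted p under 0.05 and 0 called by DESeq2. All but *Slc1a3* had log2 differences above 0, the highest being *Gjb6* at 0.33 (SE 0.176, adjusted p = 0.412), from values of 78.1, 67.5, 88.2 and 71.9 CPM in pCtrl and 66.0, 61.2, 55.3, 73.3 and 47.7 in PBS mice, which overlap. *Aldh1l1* followed at 0.17 (SE 0.0904, adjusted p = 0.419). In a composition score built from genes that differ between PBS cortex and PBS hippocampus, pCtrl hippocampi 37 and 10 stood 1.68 and 1.00 log2 units above the hippocampal mean, on the side of cortex. With this score as a covariate the difference was 0.02 for *Gjb6* and 0.09 for *Aldh1l1*.

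In cortex, pCtrl against PBS gave no call with edgeR. The test called 0 of 10 members and 0% of all genes, with 0 members and 1650 of all genes at an unadjusted p under 0.05, and DESeq2 called 0 members and, of all genes, 5 higher and 6 lower. The member differences ran from -0.04 (*Aqp4*) to 0.06 (*Aldoc*) on the log2 scale, with standard errors of 0.0689 to 0.167. Among the other astrocyte genes, 1 was called in pCtrl against PBS, *Amigo2* of the reactive list, lower in hippocampus (8.75 ± 3.48 against 18.4 ± 6.32 CPM, n = 4 and 5, log2 difference -1.08, adjusted p = 0.0433). This call was lost in 7 of 15 alternatives, with only the groups compared, with the composition covariate (adjusted p = 0.927) and without any 1 of 5 libraries.

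In the cortex of mouse 9 all 10 members were the lowest of the 14 cortices, a place this library held for 10.8% of all genes tested. Its members together took 0.562% of all counts, and those of the other 13 cortices 0.679% to 0.798%. In the hippocampus of mouse 9 all 10 members were below the group mean and 4, *Slc1a2*, *Aldh1l1*, *Glul* and *Gjb6*, were the lowest of the 13 hippocampi, against 16.1% of all genes. Here the members took 0.580% of counts, against 0.700% to 0.858% in the other 12, but this library also had the lowest TMM factor of all 27, 0.884. On the TMM scale its member sum was 6563 CPM, against 6851 to 8514 in the other 12, and its mean deviation from the group was -0.175 on the log2 scale, against -0.396 for its cortex.

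The deviation of mouse 9 was uneven over the members. On the log2 scale its cortex lay below the group mean by 0.20 (*Aldoc*) to 0.65 (*Gjb6*) and its hippocampus by 0.05 to 0.56 (again *Gjb6*). The ratio of *Gja1* to *Gjb6* was 6.14 there, against 3.79 to 3.88 in the other α-IgLON5#1 hippocampi and 3.20 to 5.09 in all control hippocampi. Its other marker sums differed as well. In hippocampus it had the highest microglial sum of its group (908 CPM, others 491 to 692). Its meningeal (51.4, others 119 to 245) and lymphocyte sums (5.58, others 42.4 to 85.9) were the lowest there. So were its endothelial (150, others 168 to 206) and mural sums (107, others 115 to 138). Its neuronal sum (5502) lay within the others' 5224 to 5559. In cortex it had the lowest sums of its group for endothelial (134 CPM, others 160 to 165), mural (89.1, others 110 to 122) and meningeal markers (76.1, others 107 to 180). The same held for lymphocyte (5.49, others 17.2 to 32.9), oligodendrocyte (2227, others 2554 to 2833) and oligodendrocyte precursor markers (131, others 149 to 186). Its cortical microglial sum was the highest (539, others 474 to 513). Mitochondrial transcripts took 4.71% and 5.34% of its counts, within the 4.498% to 6.634% of all libraries. The part of these measures in the low member levels was not tested.

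α-IgLON5#1 mouse 8 and PBS mouse 14 held the most high values. In the hippocampus of mouse 14, *Slc1a2*, *Slc1a3*, *Glul* and *Gja1* were the highest of the 13, its members took 0.858% of all counts, the highest share of all libraries, and its mean deviation from its group was 0.150 on the log2 scale. For the hippocampus of mouse 8 the mean deviation was 0.117. In mouse 8 *Aqp4*, *Aldh1l1* and *Sox9* were the highest of all libraries of the tissue in both cortex and hippocampus, while its *Glul* was below all pCtrl mice. Mouse 8 also had the highest *Gfap* of all mice in both tissues, 1380 CPM in hippocampus (the other α-IgLON5#1 mice 1296, 1073 and 732) and 1290 in cortex (532, 442 and 524), and the highest *Serpina3n*, 110 and 104 CPM. Mouse 9 came second for *Gfap* in hippocampus and cortex, so the 2 mice with the most *Gfap* had the highest and the lowest *Aqp4* of the α-IgLON5#1 cortices. The coefficient of variation of the members in α-IgLON5#1 cortices was 8.83% (*Aldoc*) to 34.9% (*Aqp4*), in pCtrl cortices 4.26% (*Aldh1l1*) to 17.0% (*Sox9*), and in PBS cortices 4.06% (*Slc1a2*) to 24.1% (*Gjb6*).

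**Figure D4:**
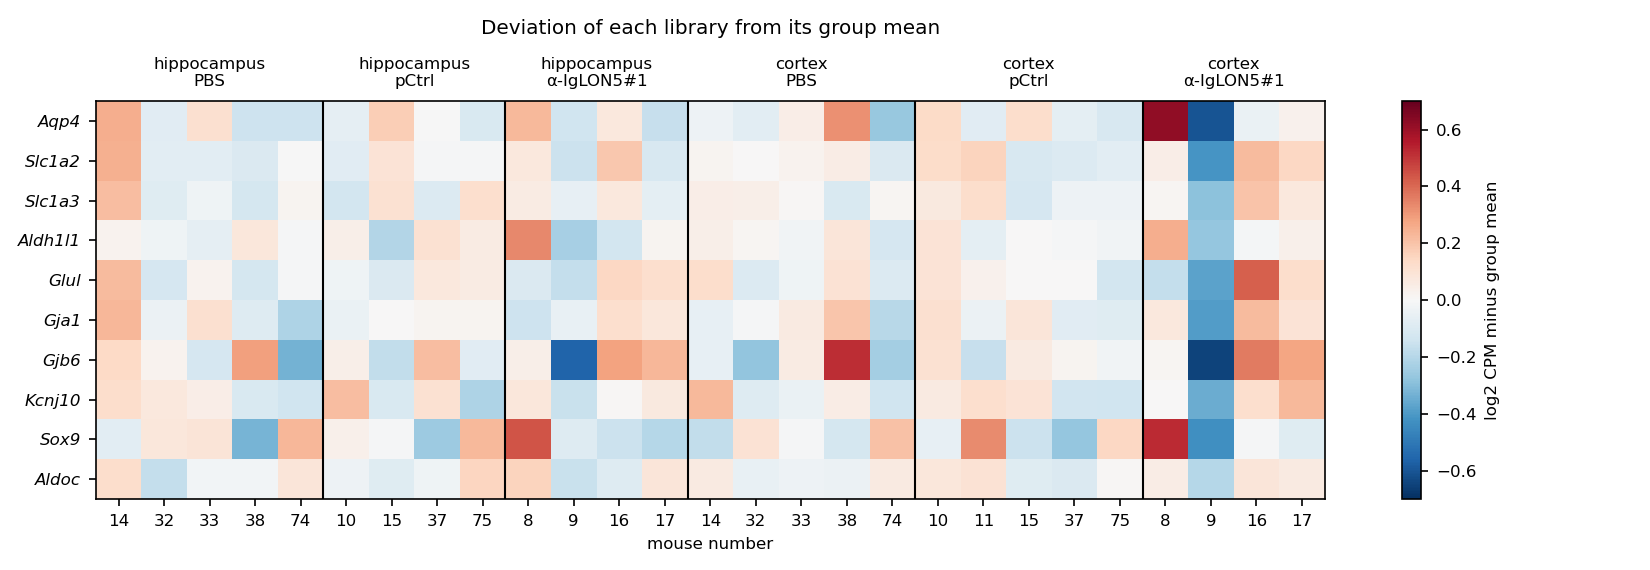
Log2 CPM of each member in each library minus the mean of its group (red above, blue below), with libraries ordered by tissue, treatment and mouse number. The column of mouse 9 is blue for all 10 members in both tissues, and mouse 8 is red for *Aqp4*, *Aldh1l1* and *Sox9*, with cortical deviations from -0.65 to 0.62.

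Levels in the hippocampus and cortex of the same mouse were compared for the 13 mice with both tissues, after removing the treatment means. Of the 10 members 2 passed an exact permutation test within treatments (69120 arrangements, two-sided, adjusted over the 10 members). For *Sox9* Pearson's r was 0.816 (permutation p = 0.00313, adjusted p = 0.0312) and Spearman's rho 0.813 (permutation p = 0.00271, adjusted p = 0.0271). Without mice 8 and 38, the 2 farthest from the median in hippocampus, r was 0.728. For *Gjb6* r was 0.826 (permutation p = 0.00904, adjusted p = 0.0452) and rho 0.698 (permutation p = 0.0270, adjusted p = 0.135), and r was 0.615 without mice 9 and 74. *Aldh1l1* had r = 0.772 (permutation p = 0.0423, adjusted p = 0.126), which fell to 0.244 without mice 8 and 9, so it rested on those animals. For the other 7 members r lay between 0.169 (*Slc1a3*) and 0.629 (*Glul*), with permutation p-values of 0.0505 to 0.552.

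**Figure D5:**
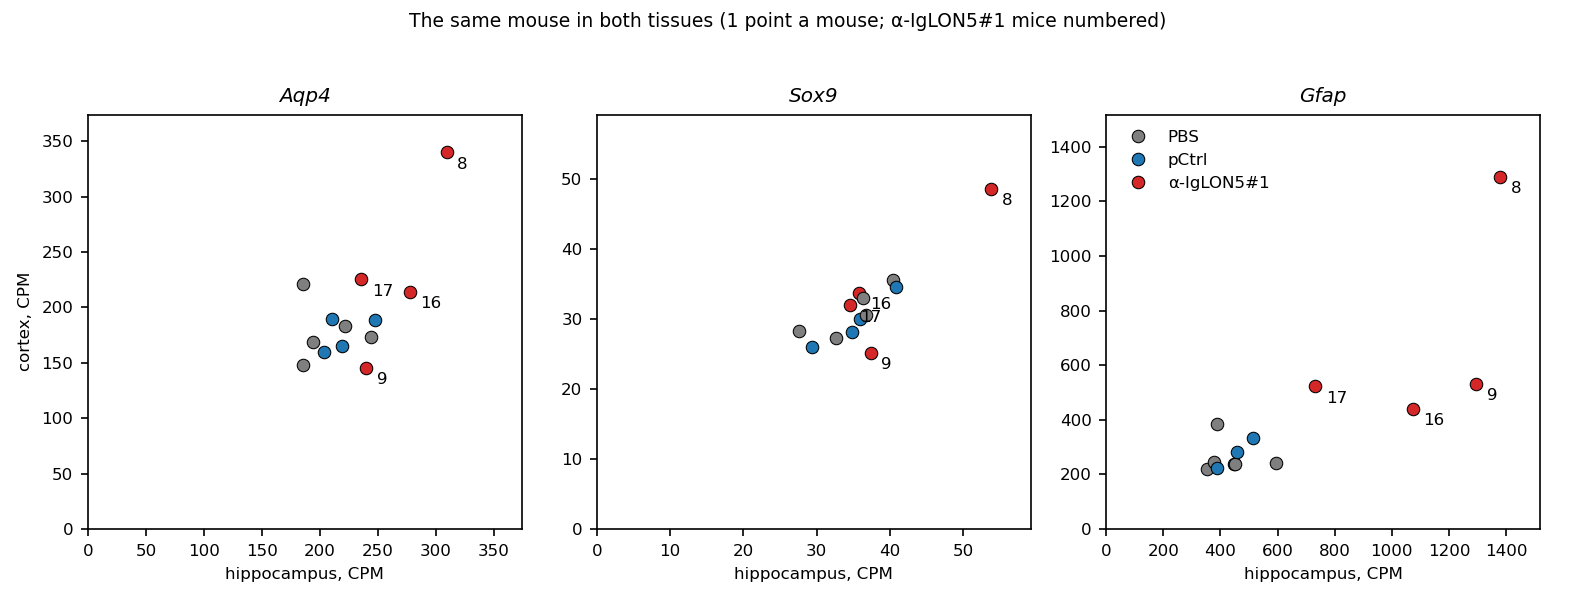
Hippocampal (x) and cortical (y) CPM of *Aqp4*, *Sox9* and *Gfap* for the 13 mice with both tissues, grey for PBS, blue for pCtrl and red for α-IgLON5#1 mice, which carry their numbers. Mouse 8 is the highest point on both axes of all 3 panels, and in the *Sox9* panel mouse 9, at 37.4 CPM in hippocampus, is the lowest of the 13 in cortex, at 25.2 CPM.

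Within groups some members varied together. Over the deviations from the group means in all 27 libraries, which share library effects and the 2 tissues of a mouse, *Slc1a2* and *Slc1a3* were the closest pair (r = 0.866), and the closest partner of both *Glul* (0.753) and *Gjb6* (0.707) was *Gja1*. *Sox9* stood apart: its r with the mean of the other 9 members was 0.231, and its r with *Gjb6* was -0.145. *Slc1a2* had the highest r with the mean of the others (0.832, and 0.692 without mouse 9). The ratio of *Slc1a2* to *Slc1a3* stayed within 3.93 to 4.87 in all hippocampi and 4.46 to 5.79 in all cortices.

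By the same measure the 10 other genes most like the members' mean deviation were *Elovl5* (r = 0.891), *Lrp4* (0.890), *Myo6* (0.869), *Zcchc24* (0.868), *Egfr* (0.861), *Ighv1-53* (0.841), *Itprid2* (0.826), *Ezr* (0.823), *Vnn1* (0.821) and *Serpinf1* (0.817). *Elovl5* encodes a fatty acid elongase, *Lrp4* a receptor for agrin, *Myo6* a myosin motor, *Egfr* the receptor of epidermal growth factor and *Ezr* ezrin, which links membranes to actin. Without mouse 9 these values were 0.597 to 0.828, so part of the likeness came from that animal. *Ighv1-53*, an immunoglobulin variable gene, and *Vnn1* were at 0 counts in at least 1 library.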

How the data were processed

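RNA of 27 libraries was sequenced in paired-end mode after stranded mRNA preparation. The authors aligned reads to GRCm38 with STAR at default settings (the submitters' notes list STAR 1.4.0) and deposited raw counts per gene, whole numbers without normalization; the counting program, annotation and strand setting are not given in the sources used here. Identifiers were matched to GENCODE M21 without their version (55227 of 55487). Genes reaching 10 counts in 4 or more of the libraries were fitted with edgeR 4.0.16 in R 4.3.3 (TMM, glmQLFit, glmQLFTest, 6 groups, no covariate), and a call is a Benjamini-Hochberg adjusted p under 0.05. Standard errors are the log2 fold change over the square root of the quasi-likelihood F. Log2 CPM used a prior count of 1. Alternatives were DESeq2 1.42.0, RLE size factors, no count filter, at least 10 counts in every library, a fold above 2, only the groups compared, animals 8 to 17, a tissue composition covariate, the mouse as a block, and each library left out; leaving out mouse 9 was added after the data were seen. Libraries of 1 group were distinct (smallest chi-square per degree of freedom 4.44). The named genes are the 10 members, up to 5 called genes of the astrocyte lists with the largest change in each direction of each comparison, and the 10 genes most like the members; *Slc14a1* in cortex after α-IgLON5#1 and *Gfap*, *Serpina3n* and reactive genes in single mice were named after their values were seen. The members and lists were chosen with earlier results of these data known.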

Additional observations from a re-analysis of the deposited data

Results flagged for a closer look

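Of 60 sets of values (10 members in 6 groups of 4 or 5 libraries), 3 held a library whose gap to its nearest neighbour was above Dixon's 95% critical value for the range of its group, where chance flags about 1 in 20. *Aldoc* in the cortex of α-IgLON5#1 mouse 9 was 660 CPM, with a gap of 0.885 of the range (critical value 0.829). *Slc1a2* in the hippocampus of PBS mouse 14 was 4123 CPM (0.720, critical value 0.710), and *Slc1a3* in the cortex of PBS mouse 38 was 667 CPM (0.766, critical value 0.710). No member's effect of α-IgLON5#1 against pCtrl differed between the tissues by the interaction test (adjusted p from 0.793 to 0.994, edgeR).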

How the results depend on the processing

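Of 146 recomputed counts of called members, 140 equalled the main count. With a fold above 2 the PBS tissue comparison gave 0 members in place of 1. Leaving out single libraries gave 0 to 1 members in cortex for α-IgLON5#1 against pCtrl and 0 to 1 against PBS. These were *Aqp4* without mouse 9 or *Glul* without mouse 16. Leaving out mouse 9 in both tissues gave 1 member, *Aqp4*, in each of these cortical comparisons, and the cause was not tested. Of 1380 recomputed values of single members, 5 newly passed the test, 0 lost a call or reversed, and 136 uncalled values changed sign. With the replicate block the PBS tissue comparison kept 1 member (*Aldh1l1*) and the interaction 0. The same number in the 2 tissues is read as 1 mouse: over genes, its deviations correlated at -0.05 to 0.443 (median 0.194), above 0.1 in 8 of 13. Counts over all genes, higher and lower, moved more. In hippocampus α-IgLON5#1 against pCtrl gave 857 and 563, but 395 and 30 with only the groups compared, 55 and 3 with animals 8 to 17, 198 and 3 with the composition covariate and 448 and 48 above a fold of 2. In cortex the same comparison gave 610 and 91, but 333 and 30, 10 and 0, and 325 and 44 under the first 3 of these, 365 and 55 with at least 10 counts in every library, and 204 lower by DESeq2. Against PBS the counts were 773 and 96 in hippocampus and 603 and 15 in cortex. In hippocampus the higher count was 481 with at least 10 counts in every library. The lower count there was 185 by DESeq2, 147 with the composition covariate and 18 with only the groups compared. In cortex the counts were 359 and 6 with that filter and 346 and 9 with only the groups compared. pCtrl against PBS in hippocampus gave 27 and 12, but 287 and 251 by DESeq2 and 0 and 0 with the composition covariate. With 4 or 5 mice a group, 95% intervals of single members against pCtrl had lower bounds down to 0.619-fold (*Gjb6*, hippocampus) and upper bounds up to 1.66-fold (*Aqp4*, cortex), and the lowest count of any member was 664.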
